A study of Mus musculus with 8 samples.

Results

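The 9 genes Cd79a, Cd79b, Ms4a1, Bank1, Pax5, Blk, Cr2, Fcer2a and Cxcr5, used as markers of B lymphocytes and of the lymph node in the mammary fat pad, were followed in 8 tumors. They were chosen by gene symbol, and each had 1 probe set carrying exactly 1 symbol. All 9 passed the expression limit, out of 19937 named genes on the array. The list was drawn up with earlier results of these tumors known, among them the high Cd79a signal of nonirradiated tumor 4 and the Bank1 difference, so neither is independent evidence here.

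The tumors grew from 4T1 cells, a mammary carcinoma line of BALB/c origin, placed orthotopically into BALB/c mice. In the preirradiated group (labelled IRR+4T1, n = 4) the fourth mammary gland had received 1 X-ray dose of 20 Gy before the cells were placed. In the nonirradiated group (labelled 4T1, n = 4) the gland had no dose. All tumors were taken after 18 days of growth, 1 array was run per tumor, and the labels do not say whether each came from a separate mouse, so p-values measure the spread between these tumors, which may in part be technical. Sex and age of the mice, and whether the lymph node of the gland was dissected away, are not given in the sources used here. Values are log2 signals after robust multi-array averaging (RMA), in which 1 unit is a change by a factor of 2. In whole tumor RNA, fewer cells of a type and less RNA per cell cannot be told apart.

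B lymphocytes detect antigen with a membrane immunoglobulin that signals through the CD79A and CD79B chains. The signal passes to Src-family and other kinases, and coreceptors set its threshold. B cells gather in follicles of lymph nodes, where the chemokine CXCL13 attracts them through CXCR5 and follicular dendritic cells display antigen bound to complement. The fourth mammary fat pad of the mouse holds such a node, so tissue cut from this site can contain tumor with its own infiltrate, node tissue, or both.

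The B cell genes were highest in 1 tumor rather than in 1 group. Nonirradiated tumor 4 had the highest signal for 9 of the 9 genes, whereas it was the highest tumor for 11.1% of the 19937 named genes. This tumor was singled out after its values had been seen. Averaged over the 9 genes, its level was 5.66 on the log2 scale, and the other 7 tumors lay between 5.20 and 5.29. It exceeded every other tumor by at least 0.2 for 5 of the 9 genes, against 0.552% of all named genes, and by at least 0.4 for 3 (Cd79a, Cd79b and Ms4a1), against 0.221%. In these 3 genes it also stood far from the other nonirradiated tumors by Dixon's criterion, as it did in 0.878% of all named genes.

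The immunoglobulin-associated signal chains showed the widest gap. Cd79a (probe set 10551025) was 4.66, 4.73, 4.76 and 5.69 in nonirradiated tumors 1 to 4, and 4.70, 4.71, 4.60 and 4.69 in preirradiated tumors 1 to 4. Only nonirradiated tumor 4 was high, at 2.00 times the mean of the other 7 tumors, while nonirradiated tumor 1 lay within the preirradiated range and tumors 2 and 3 just above it. Its partner chain Cd79b (probe set 10392142) was 5.81, 5.91, 5.87 and 6.58 in the nonirradiated and 5.82, 5.92, 5.91 and 5.86 in the preirradiated tumors. As for Cd79a, nonirradiated tumor 4 stood alone, at 1.64 times the mean of the others, which spanned 0.11.

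Ms4a1 (probe set 10466172) encodes CD20, a surface protein of mature B cells. It was 4.63, 4.56, 4.54 and 5.09 in nonirradiated tumors 1 to 4 and 4.65, 4.60, 4.65 and 4.63 in preirradiated tumors 1 to 4. Nonirradiated tumor 4 was again alone on the high side, by 0.44 over the next tumor, while nonirradiated tumor 1 lay within the preirradiated range and tumors 2 and 3 below it.

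Bank1 (probe set 10502335), a scaffold protein of the B cell receptor pathway, was the 1 gene whose other tumors also spread widely. It was 6.29, 6.25, 6.12 and 6.64 in nonirradiated tumors 1 to 4 and 6.12, 5.77, 5.70 and 6.06 in preirradiated tumors 1 to 4. Nonirradiated tumor 4 was highest and preirradiated tumors 2 and 3 were lowest. The groups overlapped narrowly, since preirradiated tumor 1 at 6.1206 stood above nonirradiated tumor 3 at 6.1192. Apart from nonirradiated tumor 4, the remaining 7 values still spanned 0.58, where those of the other 8 genes spanned between 0.076 and 0.25.

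The receptors of follicular B cells followed with smaller gaps. Cr2 (probe set 10361292), the complement receptor CD21 of B cells and follicular dendritic cells, was 4.81, 4.90, 4.81 and 5.08 in the nonirradiated and 4.78, 4.82, 4.80 and 4.82 in the preirradiated tumors. Fcer2a (probe set 10576757), the low-affinity IgE receptor CD23, was 4.83, 4.93, 4.92 and 5.18 against 4.86, 4.80, 4.84 and 4.87. In both genes nonirradiated tumor 4 was at the top, by 0.18 and 0.25 over the next tumor, and the groups overlapped. Cxcr5 (probe set 10592888), the receptor for CXCL13, was 4.87, 4.85, 4.92 and 4.96 in the nonirradiated tumors and 4.81, 4.87, 4.91 and 4.80 in the preirradiated tumors. Its top value exceeded the next by 0.034, less than the SD of 0.046 over the other 7 tumors.

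The lineage factor and a kinase complete the 9 genes. Pax5 (probe set 10512669), the transcription factor that commits cells to the B lineage, was 5.69, 5.85, 5.94 and 6.09 in nonirradiated tumors 1 to 4 and 5.83, 5.75, 5.83 and 5.91 in preirradiated tumors 1 to 4. Nonirradiated tumor 4 stood 0.15 above the next, nonirradiated tumor 1 was lowest, and the groups overlapped. Blk (probe set 10420758), a Src-family kinase of B cells, was 5.61, 5.62, 5.55 and 5.66 against 5.56, 5.57, 5.62 and 5.63, with a gap of 0.034. The gap of Blk was close to the SD of 0.031 over the other 7 tumors.

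**Figure D1:**
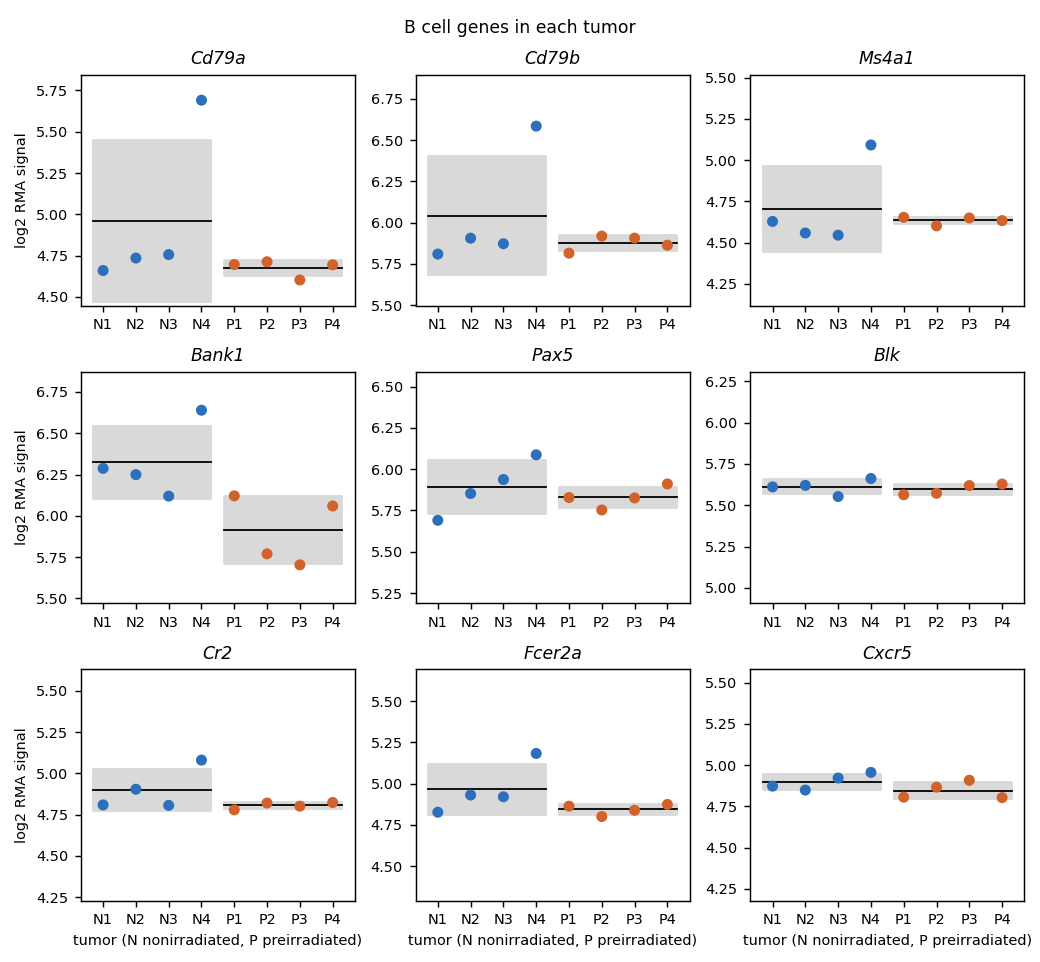
Log2 RMA signal of each B cell gene (vertical axis, the same span in every panel) in nonirradiated tumors N1 to N4 (blue) and preirradiated tumors P1 to P4 (orange). Lines are group means and grey bands are ± 1 SD (n = 4). N4 is the highest point in all 9 panels, at 5.69 for Cd79a and 6.58 for Cd79b, and Bank1 is the panel in which the other tumors also spread.

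Because several of these genes were high in the same tumor, the RefSeq sequence before their transcription starts was examined (assembly GRCm38.p6, a C57BL/6J reference, whereas the tumors were BALB/c). Promoter windows were found for 5 of the 9 genes, namely Cd79a, Bank1, Pax5, Cr2 and Fcer2a. The 250 bases before the start are printed for Cd79a, the gene with the widest gap, for Bank1, the gene that differed most between the groups, and for Cr2, a receptor that B cells share with follicular dendritic cells. The windows lie at chr7:24897247-24897496 (plus strand), chr3:136326067-136326316 (minus strand) and chr1:195176720-195176969 (minus strand), each given 5′ to 3′ along the gene. Capitals mark matches to the searched motifs.
Cd79a: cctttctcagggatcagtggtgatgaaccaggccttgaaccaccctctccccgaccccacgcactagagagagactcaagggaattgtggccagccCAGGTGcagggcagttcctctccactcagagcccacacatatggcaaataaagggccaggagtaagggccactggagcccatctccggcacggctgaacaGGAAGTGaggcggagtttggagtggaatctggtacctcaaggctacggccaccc
Bank1: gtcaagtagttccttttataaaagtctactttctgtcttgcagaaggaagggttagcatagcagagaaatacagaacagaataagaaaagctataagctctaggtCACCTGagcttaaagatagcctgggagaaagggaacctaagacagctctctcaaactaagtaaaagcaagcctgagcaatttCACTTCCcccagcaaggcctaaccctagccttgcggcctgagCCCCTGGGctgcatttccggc
Cr2: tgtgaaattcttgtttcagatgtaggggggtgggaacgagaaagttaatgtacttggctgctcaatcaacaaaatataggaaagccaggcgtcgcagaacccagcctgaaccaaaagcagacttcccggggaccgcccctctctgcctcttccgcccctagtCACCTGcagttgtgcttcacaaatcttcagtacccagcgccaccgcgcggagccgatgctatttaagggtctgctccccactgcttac

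Motifs were searched on both strands: the octamer ATGCAAAT bound by Oct factors, CCCNNGGG as the core bound by EBF1, GGAAGTG as an Ets-type site, and the E box CAGGTG. The Cd79a window held an E box 154 bases and an Ets-type match 54 bases before the start. The Bank1 window held an E box (145 bases), an Ets-type match (63 bases) and an EBF1 core (21 bases), and the Cr2 window held an E box (88 bases). None of these matches overlapped another. Of 32851 windows in the RefSeq table, 17.2% held the E box, 8.55% the Ets-type motif, 11.8% the EBF1 core and 1.60% the octamer. Of 3 windows listed for Fcer2a, 1 held the E box at 2 places, the Pax5 window held none of the motifs, and no window of the 5 genes held the octamer. A match is a description of these letters only.

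The comparison between the groups asks how tumor tissue from an irradiated bed differs from that of an untreated bed. All 9 genes had a lower mean in preirradiated tumors, where 50.5% of all 34738 probe sets were lower. With limma, 0 of the 9 passed a Benjamini-Hochberg adjusted p of 0.05 (0% of all probe sets did), and the lowest adjusted p among them was 0.789. At an unadjusted p under 0.05 there was 1 gene, Bank1, against 2.97% of probe sets that were lower at that level. The median difference of the 9 genes was -0.094, and that of all probe sets was -0.00087. In 0 of the 9 genes were the groups free of overlap, where 1.68% of probe sets had all preirradiated below all nonirradiated tumors.

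Bank1 was 5.91 ± 0.21 in preirradiated and 6.32 ± 0.22 in nonirradiated tumors (SD, n = 4 each), a log2 difference of -0.41 (SE 0.13, limma unadjusted p = 0.0144, adjusted p = 0.789), or 1.33-fold lower. It was the 1 gene of the 9 to pass the filter in the series' design text, which asks for a limma p no higher than 0.05 and a shift of 0.4 or more on the log2 scale. In this direction 0.153% of probe sets passed. Leaving out nonirradiated tumor 4, the Bank1 difference was -0.31 (SE 0.11, limma unadjusted p = 0.0297, adjusted p = 0.966), short of the filter. It also missed the filter without preirradiated tumor 2 (-0.36) or preirradiated tumor 3 (-0.34). The exact two-sided permutation test gave p = 0.0571 for Bank1, where 0.0286 is the smallest value that 4 against 4 tumors allow.

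Cd79a was 4.68 ± 0.05 in preirradiated and 4.96 ± 0.49 in nonirradiated tumors (SD, n = 4 each), a log2 difference of -0.28 (95% interval -0.77 to 0.20). When nonirradiated tumor 4 was left out, the nonirradiated mean was 4.72 ± 0.05 (SD, n = 3) and the difference was -0.041 (95% interval -0.15 to 0.069). The same tumor set the differences of its partner and of CD20. Cd79b differed by -0.17 with all tumors and by 0.013 without it, and Ms4a1 by -0.071 and 0.057.

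Among the remaining genes, Fcer2a differed by -0.12 (95% interval -0.29 to 0.046) and Cr2 by -0.094 (95% interval -0.24 to 0.050). Pax5 differed by -0.063, Cxcr5 by -0.054 and Blk by -0.016, and each interval included 0. Without nonirradiated tumor 4 the median difference of the 9 genes was -0.034, 5 of the 9 were lower and 4 (Cd79b, Ms4a1, Pax5 and Blk) were higher. Bank1 was then the 1 gene with an unadjusted p under 0.05. The intervals of the other 8 genes in that fit ran from -0.16 to 0.16 at their widest.

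**Figure D2:**
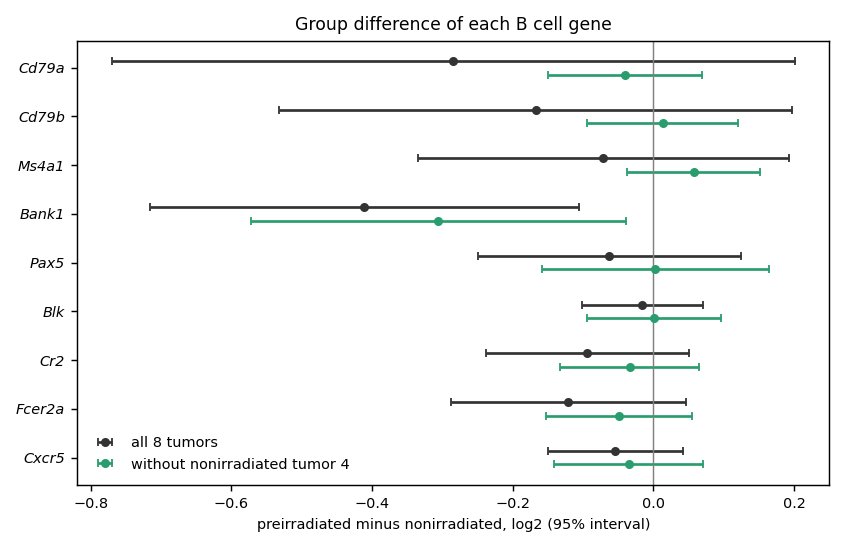
Preirradiated minus nonirradiated difference of each B cell gene on the log2 scale (horizontal axis) with its 95% limma interval, from all 8 tumors (dark) and without nonirradiated tumor 4 (green). The Bank1 intervals lie below 0 in both fits, at -0.41 and -0.31, whereas Cd79a moves from -0.28 to -0.041.

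Genes that organise a lymph node were examined in the same tumors. Glycam1, a ligand for L-selectin made by the high endothelial venules of lymph nodes and also by milk-producing epithelium, was 4.72, 4.73, 4.79 and 8.33 in nonirradiated tumors 1 to 4 and 4.91, 4.82, 4.85 and 4.71 in preirradiated tumors 1 to 4. Cxcl13, the ligand of CXCR5, was 4.87, 4.97, 4.95 and 5.79 against 5.23, 5.01, 5.05 and 5.04. A probe set that lists 7 Ccl21 paralogs and predicted genes, and so names no single gene, was 7.51 in nonirradiated tumor 4 and between 5.45 and 5.78 in the others. All 3 were highest in nonirradiated tumor 4, but they were picked for that pattern, Glycam1 by its likeness to the B cell mean and the other 2 after their values were seen, so they are no support for it. Of 6 milk protein genes measured, nonirradiated tumor 4 was highest for 1 (Csn2, 5.065 against 5.041 in the next tumor), and the mean level of the list was 5.05 there and 4.98 to 5.13 in the other tumors. Whether milk-producing cells have a part in the Glycam1 signal was not tested.

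Not every node gene was high there. Of 12 measured genes of lymph node organisation, 6 were highest in nonirradiated tumor 4. Madcam1, an addressin of high endothelial venules of gut-associated tissue, was 5.995 in that tumor and up to 5.986 in the others, while Ltb, a lymphotoxin chain of B and T cells, was 6.62 there and up to 6.81 in the others. In the group comparison 7 of the 12 were lower, and 0 passed the limma adjusted threshold or the study's filter. At an unadjusted p under 0.05 there were 2, both lower, against 2.97% of probe sets lower at that level. The median difference was -0.056, which turned to 0.025 without nonirradiated tumor 4. Vcam1, an adhesion molecule of stroma and endothelium, was 10.34 ± 0.06 in preirradiated and 10.63 ± 0.12 in nonirradiated tumors (SD, n = 4 each), a difference of -0.29 (limma adjusted p = 0.620), or -0.24 without nonirradiated tumor 4, and its groups did not overlap. Ltbr, the lymphotoxin receptor of stroma, differed by -0.14 (limma adjusted p = 0.840), also without overlap. All preirradiated tumors lay below all nonirradiated tumors in 1.68% of probe sets.

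Other B lineage genes were split. Of 20 measured, 8 were highest in nonirradiated tumor 4. Fcmr, the Fc receptor for IgM, was 6.18 in that tumor and between 5.70 and 5.83 in the others. Pou2af1, a B cell coactivator of Oct factors, was 5.92 against 5.18 to 5.56, and Cd22, an inhibitory coreceptor, was 7.01 against 6.45 to 6.72. These 3 were named after their values were seen. The other 12 genes had their highest signal in other tumors. H2-Ob, a chain of the antigen-loading regulator H2-O, was highest in nonirradiated tumor 2, as were Tnfrsf13c, the BAFF receptor of B cells, and Vpreb3. Fcrl1, an Fc receptor-like protein of B cells, was highest in preirradiated tumor 4. Plcg2, a phospholipase downstream of immune receptors, was highest in preirradiated tumor 2 at 10.95, and Ebf1, a B lineage factor that stromal and fat precursors also use, in preirradiated tumor 1 at 7.57.

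In the group comparison 15 of the 20 were lower and 5 higher, with a median difference of -0.069, and 0 passed the limma adjusted threshold or the study's filter. At an unadjusted p under 0.05 there were 2, both lower, against 2.97% of probe sets lower at that level. The smallest p values belonged to Spib, an Ets factor of B and plasmacytoid dendritic cells (-0.20, limma adjusted p = 0.774), and H2-Ob (-0.16, limma adjusted p = 0.840). Without nonirradiated tumor 4, Spib differed by -0.16 and H2-Ob by -0.15. Fcrla, an intracellular Fc receptor-like protein, was the 1 gene of the list whose groups did not overlap. It was lower in preirradiated tumors, and 1.68% of probe sets had all preirradiated below all nonirradiated tumors.

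**Figure D3:**
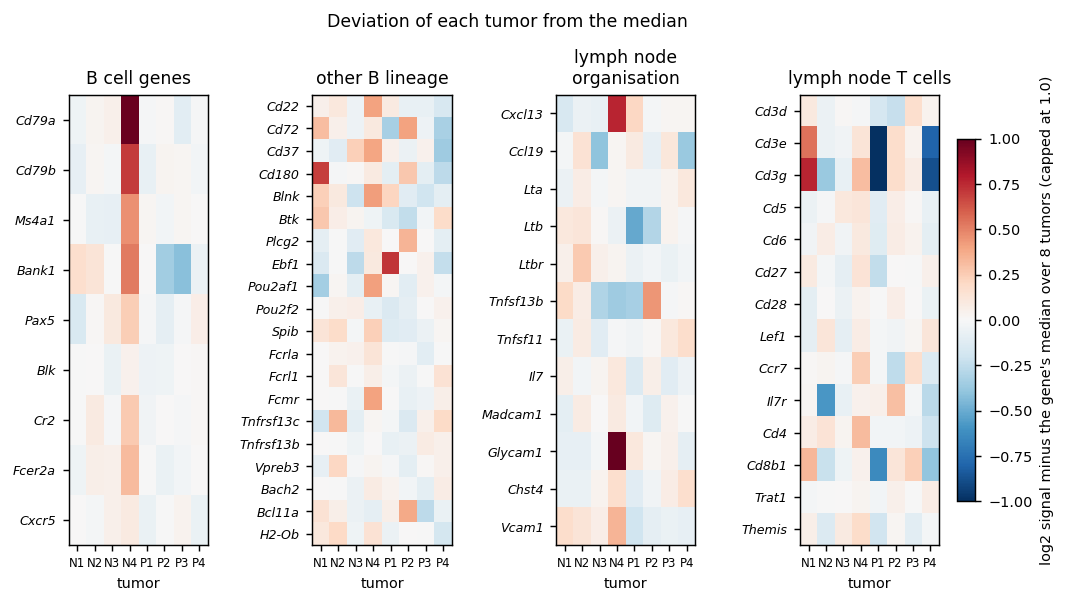
Log2 signal of each gene in each tumor minus that gene's median over the 8 tumors (colour, capped at 1.0), for the B cell genes and 3 related lists, in nonirradiated (N1 to N4) and preirradiated (P1 to P4) tumors. The N4 column is red for most B cell genes and for Cxcl13 and Glycam1, while Cd3e and Cd3g stand out as low in P1 and P4.

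Plasma cell and germinal centre genes came next. Of 8 plasma cell genes 2 were highest in nonirradiated tumor 4, among them Jchain, the joining chain of secreted immunoglobulin, at 5.03 against 4.69 to 4.94. The rest were highest in other tumors, among them Irf4 (5.14 in nonirradiated tumor 4, up to 5.26 elsewhere) and Mzb1 (5.22, up to 5.34 elsewhere). Of 5 germinal centre genes 2 were highest in nonirradiated tumor 4, Bcl6, the follicular repressor, at 9.04 against 8.39 to 8.80 and S1pr2 at 8.81 against 8.63 to 8.80. The median group differences of the lists were -0.012 and -0.0083 (-0.018 and 0.0060 without nonirradiated tumor 4), and 0 genes of either passed the limma adjusted threshold, the study's filter or an unadjusted p under 0.05.

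T cells are the other main lymphocytes of a node, and their genes were examined likewise. Of 14 measured, 6 were highest there, and the mean level of the list was 6.28 in that tumor and 6.27 in nonirradiated tumor 1. Ccr7, the homing receptor of naive and central memory T cells, was 7.005 against 6.51 to 6.93, and Cd4 was 6.23 against 5.71 to 6.05. Cd3e, a chain of the T cell receptor complex, was highest in nonirradiated tumor 1 at 9.05 and was 8.64 in nonirradiated tumor 4. Of the 14, 10 were lower in preirradiated tumors with a median of -0.072, and 0 passed the limma adjusted threshold or the study's filter. At an unadjusted p under 0.05 there was 1 (Cd4, lower), against 2.97% of probe sets lower at that level. Cd4 differed by -0.22 (limma adjusted p = 0.790), with groups that did not overlap, and Cd3e by -0.54 (limma adjusted p = 0.874). Such a lack of overlap, with preirradiated tumors lower, was seen in 1.68% of probe sets.

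Levels of other tissues were set beside the B cell genes. Of 44 keratin-associated protein genes of the hair shaft, a list added after the data were seen, 39 were highest in nonirradiated tumor 4, with a list mean of 6.30 there and 5.43 to 5.88 in the other tumors. Their part in the B cell result was not tested. Preirradiated tumor 3 had the second highest hair list mean (5.88), and its mean of the 9 B cell genes was 5.21. The tumors other than nonirradiated tumor 4 spanned only 5.20 to 5.29 in that mean, so ranks among them say little. Pan-leukocyte genes were highest in nonirradiated tumor 4 for 1 of 9, and macrophage genes for 3 of 10. Plasmacytoid dendritic cell genes were highest there for 1 of 5 and lymphatic endothelial genes for 1 of 6.

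Fat and muscle genes were highest in nonirradiated tumor 4 for 0 of 10 and 0 of 12. Their list means there were 6.56 and 6.18, below or near those of the other nonirradiated tumors. The muscle list was instead highest in preirradiated tumors 1 and 3, at 9.06 and 10.35 against at most 6.39 elsewhere. The fat list mean was highest in preirradiated tumor 1, at 8.42 against 6.49 to 7.23 elsewhere. In the group comparison 9 of 10 fat genes were higher in preirradiated tumors, with a median of 0.53. Of them 2 (Plin4 and Car3) passed the study's filter, as did 170 of 34738 probe sets in this direction. All 12 muscle genes were higher, with a median of 1.72, and 0 passed that filter. Of 6 lymphatic endothelial genes 5 were higher, and Pdpn passed the filter. None of these genes passed the limma adjusted threshold. At an unadjusted p under 0.05 there were 2 fat, 0 muscle and 1 lymphatic genes, all higher, where 985 of 34738 probe sets were higher at that level. Their part in the B cell result was not tested. Preirradiated tumors 1 and 3 were also left out, a setting chosen after seeing the data. Bank1 then differed by -0.41 (limma unadjusted p = 0.0379) and Cd79a by -0.26. That setting kept nonirradiated tumor 4, on which the Cd79a difference rests, so it cannot decide the part of fat or muscle. Of the leukocyte lists, 10 of 10 macrophage genes and 8 of 9 pan-leukocyte genes were lower in preirradiated tumors, with medians of -0.17 and -0.19, and 0 of either list passed the limma adjusted threshold or the study's filter. At an unadjusted p under 0.05 there were 4 macrophage and 3 pan-leukocyte genes, all lower, against 2.97% of probe sets lower at that level. The groups of Cd68 and Ptprc did not overlap, where 1.68% of probe sets had all preirradiated below all nonirradiated tumors. Of these lists Ptprc, the common leukocyte antigen CD45, differed by -0.19 (limma adjusted p = 0.809) and C1qc, a macrophage complement chain, by -0.18 (limma adjusted p = 0.763). Epithelial genes of the tumor cells were higher for 7 of 7 with a median of 0.21, and 0 passed the limma adjusted threshold or the study's filter. At an unadjusted p under 0.05 there were 2 (Krt7 and Cldn7), against the 985 of 34738 probe sets given above. Krt7 differed by 0.39 (limma unadjusted p = 0.00118, adjusted p = 0.620). Its groups did not overlap, as for 338 of 19937 named genes in this direction. Whether lower leukocyte genes have a part in the Bank1 difference was not tested.

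**Figure D4:**
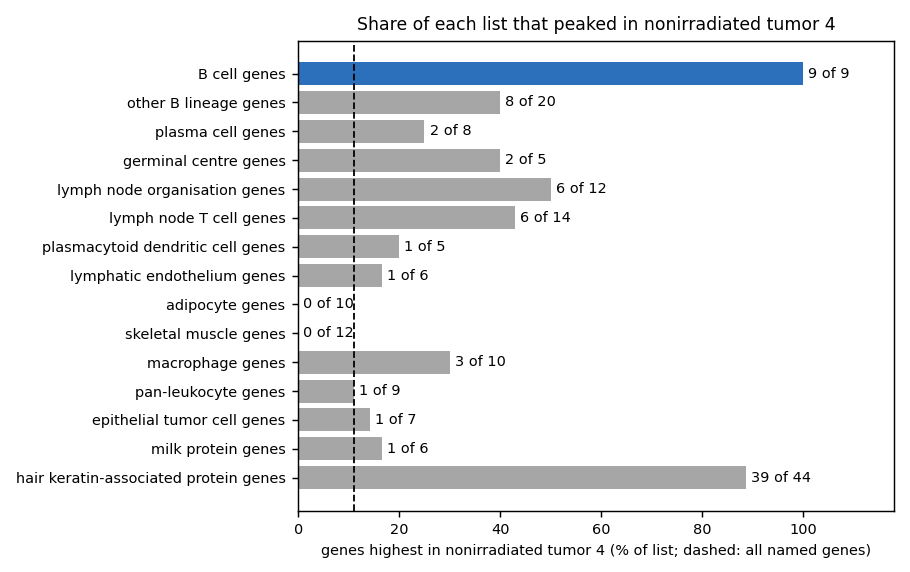
Share of the measured genes of each list that had their highest signal in nonirradiated tumor 4 (horizontal axis, percent), with the counts beside the bars. The dashed line marks the share over all named genes, 11.1%. The B cell genes stand at 9 of 9 and the hair genes at 39 of 44, while fat and muscle genes stand at 0.

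The genes most like the B cell genes over the 8 tumors were sought among 2399 genes with a range of at least 0.5. By Pearson correlation with the mean of the 9 genes, the closest 5 were Glycam1 (0.97), Krtap15 (0.97), Krtap19-3 (0.96), Krtap19-1 (0.95) and Krtap13-1 (0.94), the last 4 being hair keratin-associated proteins. This likeness rests on nonirradiated tumor 4, and the Spearman values of these genes lay between -0.26 and 0.52. Without nonirradiated tumor 4 and preirradiated tumor 2, the 2 tumors farthest from the median of the B cell mean, the Pearson values lay between -0.89 and -0.019. No relation among the remaining tumors is given, since the B cell genes other than Bank1 varied there by so little.

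The label of B cell markers could be checked only in part. In the 7 tumors other than nonirradiated tumor 4, signals of 8 of the 9 genes stayed within 0.3 of each other, and the deposited values carry no detection call. Whether these signals stand above background in those tumors therefore cannot be told from the values.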

How the data were processed

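Total RNA of 8 tumors was hybridised to Affymetrix Mouse Gene 1.0 ST arrays, 1 array per tumor. The deposited values are log2 signals per probe set made by the authors with RMA in the affy package of Bioconductor 2.4, per the series' design text, and R 2.15.3 is named in the submitters' processing notes. RMA makes the arrays' distributions alike, so a change in total RNA cannot be seen, and it understates changes near background. The number of arrays limits the precision.

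Of 34760 probe sets, 34738 with a mean of at least 4 entered the fit. Platform annotation gave 1 symbol for 21640, several for 1321 and none for 11799, and a gene was read from the brightest of its single-symbol probe sets. Preirradiated minus nonirradiated was fitted with lmFit and eBayes of limma 3.58.1 (two-sided, R 4.3.3), with Benjamini-Hochberg adjustment over all probe sets. The study's filter was read as holding in either direction. The pipeline was tested on simulated data. Genes named are the 9 B cell genes, from related lists the 2 of smallest p and the 1 of highest mean (not all are described), and the 5 closest in pattern. Others are said to be chosen later, or stand as examples of a count. The members, lists and rules were chosen with earlier results of these data known, and the milk and hair lists were added after the data were seen. Alternatives covered the expression limit, variance model, normalization, array weights, a replicate block, the choice of probe set and leaving out each tumor. Promoter windows came from a RefSeq table of GRCm38.p6, with motifs searched in Python 3.11.15. The array annotation states no genome build, so no gene coordinates are given.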

Additional observations from a re-analysis of the deposited data

Results flagged for a closer look

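In groups of 4 tumors, a tumor was singled out when its gap to the nearest other tumor passed Dixon's 95% limit as a share of the group's range, which chance does in about 1 of 20 groups. Of 20 group profiles checked (the 9 B cell genes and their mean, in 2 groups), 5 met this. The profiles are not independent, since they share tumors and the mean holds the same genes. The Cd79a signal of nonirradiated tumor 4 was also known when the list was drawn up. The number met can therefore not be set against chance. Nonirradiated tumor 4 stood far above the other nonirradiated tumors for Cd79a (5.69), Cd79b (6.58), Ms4a1 (5.09) and the mean of the 9 genes (5.66). Over all named genes, 0.878% placed this tumor as far above the rest of its group. Preirradiated tumor 3 stood below its group for Cd79a at 4.60, where the other preirradiated tumors lay between 4.69 and 4.71.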

How the results depend on the processing

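Of 20 alternatives, 1 (without preirradiated tumors 1 and 3) was chosen after seeing the data. In the 19 that refit the limma model, 0 of the 9 genes passed the adjusted threshold. Nonirradiated tumor 4 was highest for 9 of 9 genes with a further quantile normalization and with arrays centred on their medians. The other settings that kept this tumor could not change its rank, so they are no check of it. A mean limit of 5 left 4 of the 9 genes in the test, all lower, and without nonirradiated tumor 4 the number lower was 5. The number of the 9 genes past the study's filter ran from 0 to 1 when 1 tumor was left out, and was 0 without nonirradiated tumor 4 and without preirradiated tumor 2 or 3. The median difference then ran from -0.13 to -0.034. Leaving out nonirradiated tumor 4 turned the sign for 4 genes, so that leave-one-out differences ran from -0.25 to 0.013 for Cd79b, -0.12 to 0.057 for Ms4a1, -0.13 to 0.0026 for Pax5 and -0.035 to 0.0011 for Blk. Genes with groups that do not overlap rose from 0 to 2 with arrays centred on their medians and to 1 with a further quantile normalization or without preirradiated tumors 1 and 3, and ran from 0 to 2 when 1 tumor was left out. The share of all probe sets without overlap is not given for these settings, so the rise is no result about the 9 genes. Median centring also shifted the whole comparison, with 24359 of 34738 probe sets lower, against 17560 in the main fit. Of all genes in the related lists, 3 passed the study's filter, against 15 with array weights, 1 with median centring, 1 with the replicate block and 0 to 16 when 1 tumor was left out. Deviations from the group means correlated by -0.29 to -0.075 between same-numbered tumors and by -0.17 to 0.35 between the others. This cannot tell whether the titles' numbers pair tumors, which the labels do not say. With the replicate block Bank1 differed by -0.41 and still passed the study's filter.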

Other observations

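Immunoglobulin genes were read over 29 probe sets whose listed symbols are all immunoglobulin segments or constant regions, a set formed after the data were seen. Nonirradiated tumor 4 was highest for 16 of the 29, against 11.1% of named genes, and its gap over the next tumor reached at most 0.32. In the group comparison 22 of the 29 were lower and 7 higher in preirradiated tumors, where 50.5% of all probe sets were lower. The median difference was -0.040, and 0 passed the limma adjusted threshold or the study's filter. The difference without nonirradiated tumor 4 is not given for this set. Such probe sets share sequence between segments and carry reference alleles, so single values are not given.

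The Cd3 chains of the T cell receptor complex were not highest in nonirradiated tumor 4, and they did not share 1 order of tumors. Cd3d was highest in preirradiated tumor 3 at 5.62 and lowest in preirradiated tumor 2 at 5.22. Cd3e and Cd3g were highest in nonirradiated tumor 1. Cd3g was 7.97, 6.84, 7.13 and 7.52 in nonirradiated tumors 1 to 4 and 5.999, 7.38, 7.28 and 6.33 in preirradiated tumors 1 to 4, with preirradiated tumors 1 and 4 lowest. Cd79a in those 2 tumors was 4.70 and 4.69, within the range of the other tumors apart from nonirradiated tumor 4. The hair gene Krtap15, picked by its likeness to the B cell mean, was 6.72 in nonirradiated tumor 4 and between 4.68 and 4.86 in the others. Hair signal was not confined to that tumor. Krtap7-1 was 10.43 in nonirradiated tumor 4, 8.96 in preirradiated tumor 3 and at most 5.58 elsewhere. Krtap8-1 was 9.29 and 8.16 in these tumors and at most 5.29 elsewhere. Krtap7-1 and Krtap8-1 were named after their values were seen.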
